A study of Homo sapiens with 11 samples.

Results

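The miR-29 family was followed in SH-SY5Y cells through all 7 of its mature miRNAs in the count tables, hsa-miR-29a-3p, hsa-miR-29b-3p and hsa-miR-29c-3p and the opposite arms hsa-miR-29a-5p, hsa-miR-29b-1-5p, hsa-miR-29b-2-5p and hsa-miR-29c-5p. These members were chosen by name, out of 2576 mature miRNAs listed. SH-SY5Y is a neuroblastoma line subcloned from SK-N-SH that takes on a neuron-like form with all-trans retinoic acid (ATRA), and every library came from this line after 7 days with ATRA at 10 µM. In co-treatment, H2O2 at 10 µM was added together with ATRA for those 7 days (3 libraries), and its controls received ATRA without H2O2 (3 libraries). In pre-treatment, H2O2 at 10 µM was given for 3 days (72 h) and removed before ATRA (3 libraries), with 2 control libraries that were differentiated without H2O2. The study describes biological triplicates, whereas only 2 pre-treatment control libraries were available here. All replicates share the genetic background of the single line.

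miRNAs are cut from hairpins, and either arm of a hairpin can be loaded onto an Argonaute protein to silence mRNAs that pair with its seed. The 3p arms of miR-29 are the guide strands usually found on Argonaute. They are known for silencing collagens and other matrix genes, the DNA methyltransferases DNMT3A and DNMT3B and the survival gene MCL1, and for restraining BH3-only cell death genes as neurons mature. The 5p arms come from the same hairpins and are usually degraded as passenger strands.

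The sequences are shown because the 3p arms share their seed and differ by few bases, which bears on how their reads were told apart. All 7 members matched a RefSeq mature sequence, printed here 5′ to 3′ with the seed (bases 2 to 8) in capitals, and no other mature miRNA in that table has the seed of the 3p arms.
hsa-miR-29a-3p: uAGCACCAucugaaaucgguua
hsa-miR-29c-3p: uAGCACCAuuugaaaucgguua
hsa-miR-29b-3p: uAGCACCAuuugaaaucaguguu
hsa-miR-29a-5p: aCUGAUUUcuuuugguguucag
hsa-miR-29c-5p: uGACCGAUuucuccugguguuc
hsa-miR-29b-1-5p: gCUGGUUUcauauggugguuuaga
hsa-miR-29b-2-5p: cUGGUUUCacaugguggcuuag

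Counted from 1 at the 5′ end, hsa-miR-29a-3p and hsa-miR-29c-3p differ by the single change C10U, outside the seed. From hsa-miR-29c-3p to hsa-miR-29b-3p the changes are G18A, U21G and A22U, with 1 further base at the 3′ end. The end of hsa-miR-29b-3p is known as a signal for import into the nucleus. Each 5p arm has a seed of its own.

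The hairpins lie in pairs. On GRCh37, the assembly also called hg19, MIR29A is on chromosome 7 from 130561506 to 130561569 and MIR29B1 from 130562218 to 130562298, with 648 bases between them. MIR29C is on chromosome 1 from 207975197 to 207975284 and MIR29B2 from 207975788 to 207975868, with 503 bases between them. All 4 are on the minus strand and overlap an exon of a long non-coding RNA on the same strand, LINC-PINT on chromosome 7 and MIR29B2CHG on chromosome 1, and the pair on chromosome 7 also lies in an intron of LINC00513 on the plus strand. The mature hsa-miR-29b-3p is encoded by both MIR29B1 and MIR29B2, so its reads match both places equally, whereas every other member has 1 hairpin. How the authors' counting treated such reads is not given in the sources used here, and levels of hsa-miR-29b-3p are therefore uncertain.

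Libraries held from 5343953 to 8927582 counts (median 7425640). Levels are given as CPM, counts scaled to a common library size with TMM factors over all 11 libraries. The 3 counts taken as the detection limit correspond to 0.336 to 0.561 CPM before TMM factors are applied. The pre-treatment controls were less alike than other replicates, with a Pearson correlation of log2 CPM across miRNAs of 0.942 between them against 0.981 to 0.993 within the other groups. Pre-treatment control 1 alone held 540 counts of the white blood cell miRNA hsa-miR-223-3p and 1007 of the epithelial hsa-miR-205-5p, against 4 and 32 in control 2. The other white blood cell markers listed were also higher in control 1 than in control 2. Their counts there were 182 and 62 for hsa-miR-142-3p, 85 and 15 for hsa-miR-142-5p, 33 and 13 for hsa-miR-150-5p, and 3 and 0 for hsa-miR-155-5p. The other epithelial markers did not follow hsa-miR-205-5p as a set. In controls 1 and 2, hsa-miR-200a-3p had 22 and 40 counts and hsa-miR-200b-3p 15 and 35. Higher in control 1 were hsa-miR-200c-3p (178 and 131) and hsa-miR-141-3p (79 and 47). The neuronal marker hsa-miR-124-3p was nearly absent, with 0 to 7 counts per library, while hsa-miR-137, another neuronal miRNA, had at least 77318 counts in every library.

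The 3p arms of miR-29a and miR-29c were the abundant members. In co-treatment controls, hsa-miR-29c-3p had 4190 ± 1716 CPM (SD, n = 3) and hsa-miR-29a-3p 3642 ± 983 CPM (SD, n = 3), which placed them 41st and 43rd among the 2576 miRNAs, and their library ranges overlapped. Next came hsa-miR-29c-5p at 123 ± 21.9 CPM (SD, n = 3), hsa-miR-29b-2-5p at 39.5 ± 7.88 CPM (SD, n = 3) and hsa-miR-29a-5p at 16.3 ± 1.93 CPM (SD, n = 3), none of which overlapped a neighbour in this order. The lowest were hsa-miR-29b-3p at 7.89 ± 4.06 CPM (SD, n = 3) and hsa-miR-29b-1-5p at 7.22 ± 0.464 CPM (SD, n = 3), whose ranges overlapped. Unlike for miR-29a and miR-29c, the 3p arm of miR-29b was counted less often than a 5p arm. hsa-miR-29b-3p had 27 to 75 counts in these libraries and hsa-miR-29b-2-5p, from only 1 of its hairpins, had 216 to 342. A mature miRNA is about as long as its read, so these levels need no correction for length, and the efficiency with which each sequence enters a library was not measured.

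**Figure D1:**
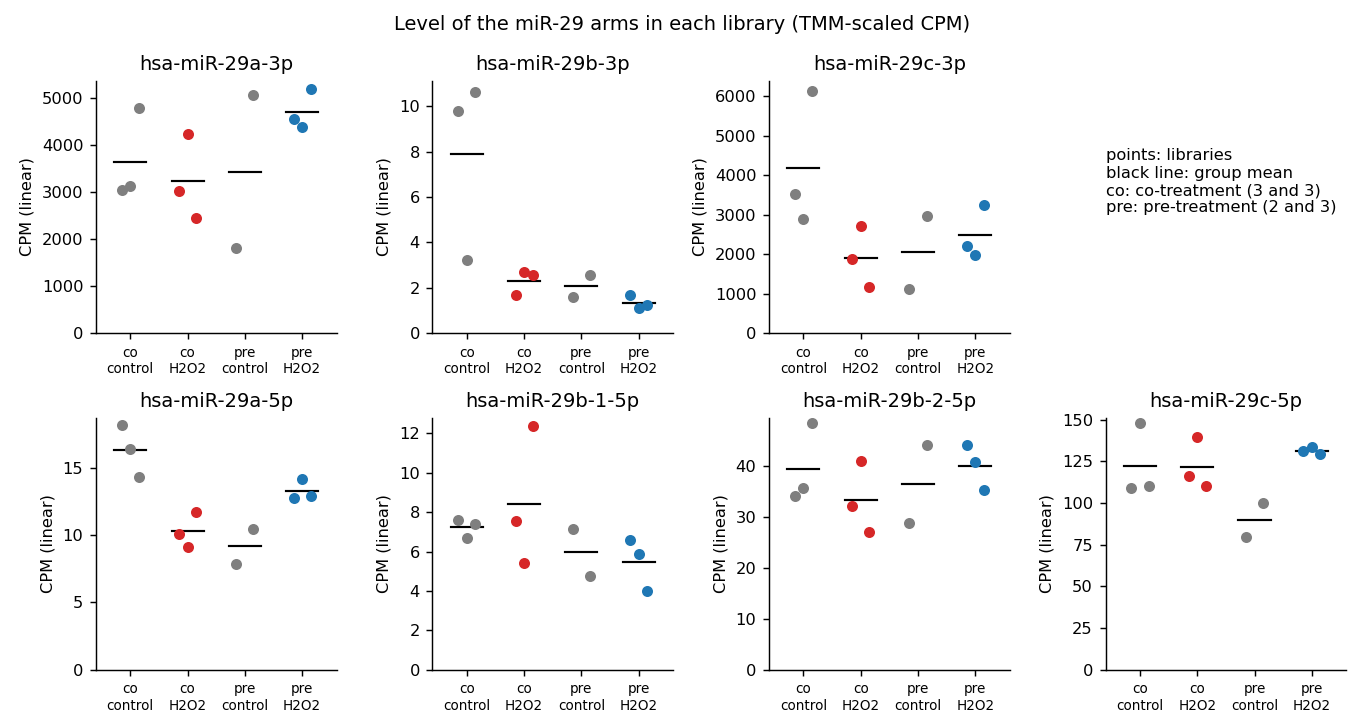
TMM-scaled CPM of each miR-29 arm (vertical axes, linear, each from 0) in the 11 libraries, by group on the horizontal axes; points are libraries and black lines group means. The co-treatment controls hold the highest levels of hsa-miR-29b-3p (3.23 to 10.6 CPM against 1.09 to 2.70 CPM in the other 8 libraries).

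In co-treatment, the guide strands of miR-29c and miR-29b were lower with H2O2, while that of miR-29a was not called changed. hsa-miR-29c-3p had 3534, 2899 and 6137 CPM in the controls and 1876, 2705 and 1155 CPM in the H2O2 libraries. Every H2O2 library lay below every control, although control 2 and H2O2 replicate 2 were close. This gave a log2FC of −1.14 (SE 0.31), with a Benjamini-Hochberg FDR of 0.00633 in the exact test of edgeR and 0.0162 in its quasi-likelihood test. The call was lost without control 3 (log2FC −0.74, FDR = 0.105), without H2O2 replicate 3 (−0.85, FDR = 0.101) and without H2O2 replicate 1 (−1.11, FDR = 0.0554, all from edgeR's exact test). It was also lost when both experiments were fitted jointly (−1.13, quasi-likelihood FDR = 0.0805).

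hsa-miR-29b-3p rested on few reads, namely 62, 27 and 75 among control libraries and 15, 16 and 19 among those given H2O2. In CPM these were 9.80, 3.23 and 10.6 against 1.66, 2.70 and 2.56, so the groups did not overlap, and control 2 was again nearest to the H2O2 libraries. Its log2FC was −1.78 (SE 0.43, edgeR exact test FDR = 0.00157, quasi-likelihood FDR = 0.00908). It was called with any 1 library left out, with log2FC from −2.18 to −1.48.

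hsa-miR-29a-3p had 3034, 3116 and 4777 CPM in the controls and 3026, 4238 and 2449 CPM in the H2O2 libraries. These groups overlapped, with log2FC −0.19 (SE 0.26, edgeR exact test FDR = 0.661), and the sign turned without control 3 (0.09).

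Of the 5p arms, none was called in co-treatment. hsa-miR-29a-5p came nearest, with 18.2, 16.4 and 14.3 CPM in the controls and 10.1, 9.11 and 11.7 CPM in the H2O2 libraries. All H2O2 libraries lay below all controls, and the log2FC of −0.70 (SE 0.29) had an FDR of 0.0772 by edgeR's exact test. hsa-miR-29c-5p, the passenger strand of the lowered hsa-miR-29c-3p, had 109, 148 and 111 CPM in the controls and 116, 139 and 110 CPM in the H2O2 libraries, with overlapping groups and a log2FC of −0.06 (SE 0.27). For the miR-29b passengers the groups overlapped too, with log2FC −0.27 (SE 0.27) for hsa-miR-29b-2-5p, the neighbour of miR-29c on chromosome 1, and 0.19 (SE 0.34) for hsa-miR-29b-1-5p, the neighbour of miR-29a.

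Altogether 2 of 7 members were lowered and 0 raised in co-treatment, where the exact test called 26.2% of the 790 miRNAs tested, 15.6% lowered and 10.6% raised, and the quasi-likelihood test, which called the same 2 members, 22.9%. All 7 passed the low-count filter of both experiments. An unadjusted p under 0.05 was reached by 3 of 7 members and by 40.1% of all tested miRNAs. The groups were apart for 3 members, all lower with H2O2, against 20.6% of all tested miRNAs lower and 21.6% higher. The median log2FC was −0.27 over the members and −0.04 over all tested miRNAs.

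**Figure D2:**
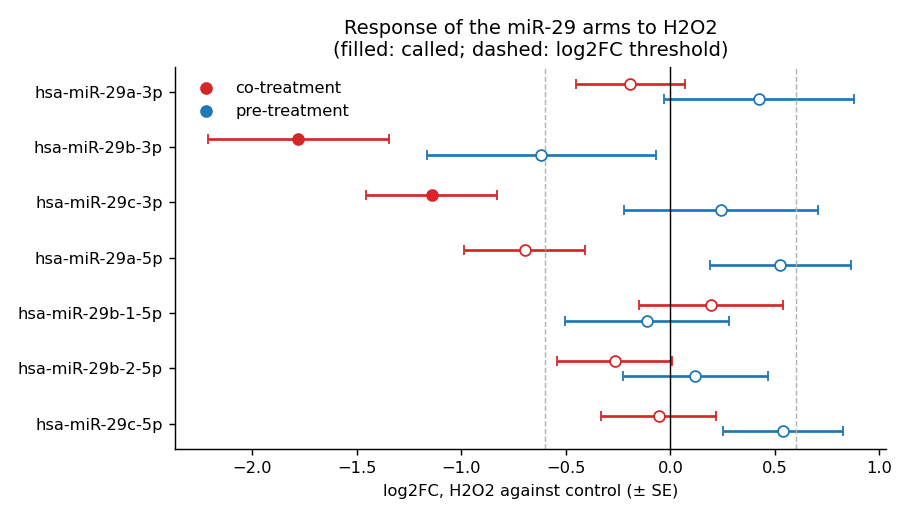
log2FC of H2O2 against control (horizontal axis) for each miR-29 arm in co-treatment (red) and pre-treatment (blue), with bars of ± 1 SE from the quasi-likelihood fit; filled points were called by the exact test and dashed lines mark a log2FC of 0.6 in either direction. Only hsa-miR-29b-3p (−1.78) and hsa-miR-29c-3p (−1.14) in co-treatment are filled.

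The response in co-treatment went with the base composition of the miRNAs. Of tested miRNAs with a GC content under 42%, 39.3% of 191 were lowered and 0 raised, with a median log2FC of −0.75. From 42% to under 52% GC, 11.6% of 198 were lowered and 5.05% raised. At 52% or more, 2.89% of 311 were lowered and 20.6% raised, with a median of 0.47. The lowered members were among the members poorest in GC, with 34.8% in hsa-miR-29b-3p and 36.4% in hsa-miR-29c-3p, as was hsa-miR-29a-5p with 36.4%. hsa-miR-29a-3p had 40.9%, hsa-miR-29b-1-5p 41.7%, and hsa-miR-29b-2-5p and hsa-miR-29c-5p 50.0% each.

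After correction of every library for its trend across GC content, neither lowered member was called. In the quasi-likelihood test of 363 miRNAs with at least 10 CPM, hsa-miR-29c-3p went from log2FC −0.99 (FDR = 0.0280) to −0.35 (FDR = 0.456). In the same test of all 700 tested miRNAs with a sequence, a setting chosen after seeing the data, hsa-miR-29b-3p went from −1.78 to −0.98 (quasi-likelihood FDR = 0.158) and hsa-miR-29c-3p from −1.14 to −0.42 (quasi-likelihood FDR = 0.393). hsa-miR-29a-3p then stood at 0.31 and hsa-miR-29a-5p at −0.01. Whether the GC trend arose in the cells or in the libraries was not tested.

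**Figure D3:**
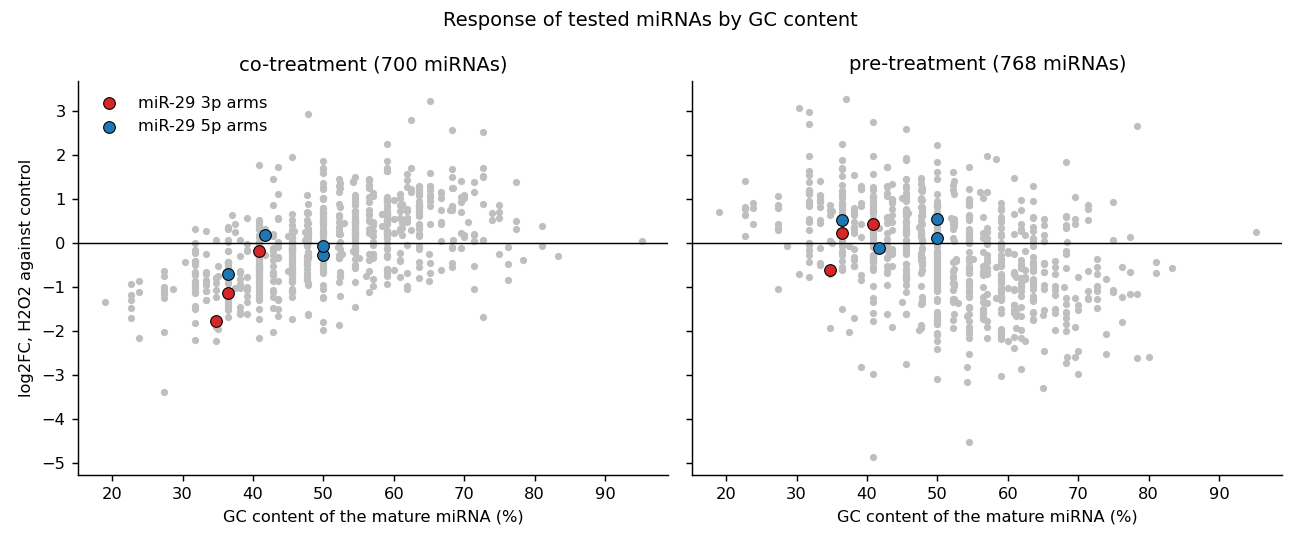
log2FC of H2O2 against control (vertical axes) by GC content of the mature sequence in % (horizontal axes) for tested miRNAs in co-treatment and pre-treatment; grey points are other miRNAs, red points the miR-29 3p arms and blue points the 5p arms. In co-treatment the medians run from −0.75 under 42% GC to 0.47 at 52% or more, and in pre-treatment from 0.45 to −0.71.

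The balance between miR-29c and miR-29a can be read within each library, where scaling plays no part. hsa-miR-29c-3p made up 53.8, 48.2 and 56.2% of the counts of hsa-miR-29a-3p plus hsa-miR-29c-3p in the co-treatment controls and 38.3, 39.0 and 32.1% in the H2O2 libraries. All H2O2 libraries were below all controls, and the mean share was 36.4 ± 3.80% (SD, n = 3) with H2O2 and 52.8 ± 4.12% (SD, n = 3) in controls, a difference of −16.3 percentage points (exact permutation test, two-sided p = 0.1, the smallest these 3 and 3 libraries allow, and 0.3 with Benjamini-Hochberg adjustment over 6 ratios). The difference lay between −18.6 and −14.1 points with any 1 library left out. The log2FC of hsa-miR-29c-3p minus that of hsa-miR-29a-3p was −0.95, and −0.74 with the GC trend of all tested miRNAs taken off. These strands differ by 1 base, and their GC contents are 36.4% and 40.9%.

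In pre-treatment the share of hsa-miR-29c-3p was 38.4 and 37.0% in the controls and 32.7, 31.2 and 38.4% with H2O2, which overlapped (exact permutation test, two-sided p = 0.4, n = 2 and 3). The co-treatment controls thus stood apart from the other 8 libraries, at 48.2 to 56.2% against 31.2 to 39%. The same order was seen for hsa-miR-29b-3p, with 3.23 to 10.6 CPM in co-treatment controls against 1.09 to 2.70 CPM in the other 8, and for hsa-miR-29a-5p, with 14.3 to 18.2 CPM against 7.85 to 14.2 CPM. For hsa-miR-29a-5p the gap was narrow, at 14.33 against 14.17 CPM. For hsa-miR-29c-3p the co-treatment controls overlapped the rest. The 3 members compared here were those whose groups were already apart in co-treatment, so part of this order was known beforehand. How many of all tested miRNAs showed this order was not counted. Experiment and any difference in handling between experiments cannot be told apart.

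Against its own passenger, the guide of miR-29c had lower values with H2O2 in co-treatment, in a comparison too small to pass a threshold. The passenger hsa-miR-29c-5p had a log2FC of −0.06, so this ratio mostly restates the fall of hsa-miR-29c-3p. The log2 ratio of 3p to 5p counts of miR-29c was 5.01, 4.29 and 5.79 in co-treatment controls and 4.01, 4.28 and 3.39 with H2O2. The groups just failed to overlap, at 4.29 in control 2 and 4.28 in H2O2 replicate 2, and the mean difference was −1.14 (exact permutation test, two-sided p = 0.1, n = 3 and 3, adjusted 0.3). For miR-29a the ratio was 7.38, 7.57 and 8.37 in controls and 8.22, 8.85 and 7.70 with H2O2, which overlapped (exact permutation test, two-sided p = 0.4, n = 3 and 3). The 3p arm of miR-29c is poorer in GC than its 5p arm (36.4% against 50.0%), while the arms of miR-29a are closer (40.9% and 36.4%).

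**Figure D4:**
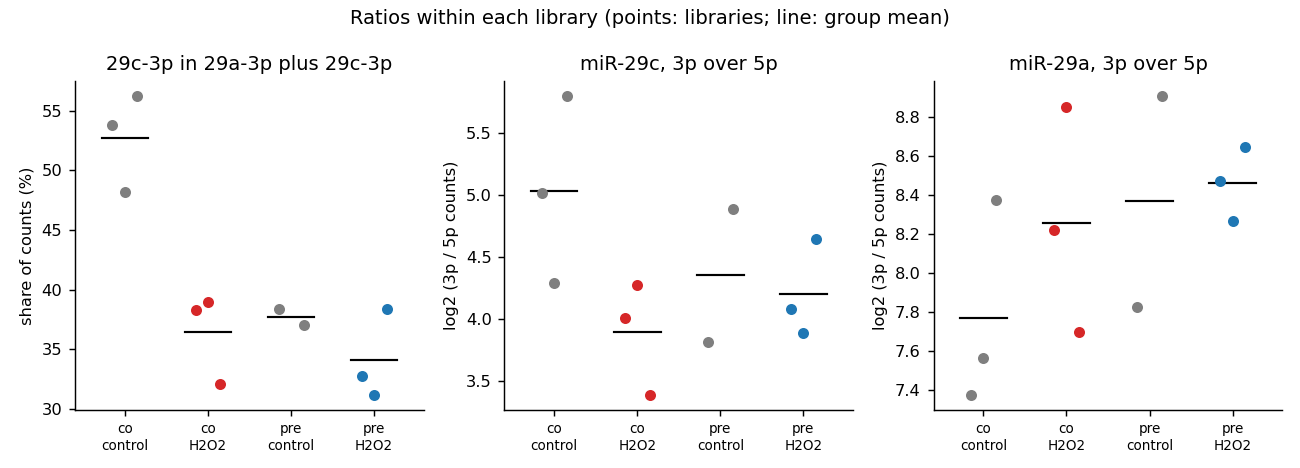
Within-library ratios by group (horizontal axes), with points for libraries and black lines for group means; the vertical axes, which do not start at 0, give the share of hsa-miR-29c-3p in % and the log2 ratio of 3p to 5p counts of miR-29c and miR-29a. The 3 co-treatment controls have shares from 48.2 to 56.2%, above the other 8 libraries.

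In pre-treatment no member was called. hsa-miR-29a-3p had 1801 and 5055 CPM in the controls and 4552, 4386 and 5189 CPM in the H2O2 libraries, and hsa-miR-29c-3p had 1123 and 2971 CPM in the controls and 2213, 1987 and 3235 CPM with H2O2. For both, the controls lay far apart and control 2 was within the range of the H2O2 libraries. Their log2FC were 0.42 (SE 0.45) and 0.24 (SE 0.46), with FDR of 0.635 and 0.798 from edgeR's exact test.

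The passenger strands of the same hairpins had controls closer together. hsa-miR-29c-5p had 79.5 and 100.2 CPM in the controls and 131, 134 and 130 CPM with H2O2, a log2FC of 0.54 (SE 0.29, edgeR exact test FDR = 0.383). hsa-miR-29a-5p had 7.85 and 10.45 CPM in the controls and 12.8, 14.2 and 12.9 CPM with H2O2, a log2FC of 0.53 (SE 0.34, edgeR exact test FDR = 0.471). With the GC trend of all tested miRNAs taken off, the log2FC was 0.072 for hsa-miR-29a-5p and 0.62 for hsa-miR-29c-5p (quasi-likelihood FDR = 0.861 and 0.139). Both were higher in every H2O2 library than in either control without passing the test, and 25% of the 868 tested miRNAs were apart in that direction and 23.4% in the other.

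The miR-29b arms overlapped between the groups. hsa-miR-29b-3p had 11 and 17 control counts against 14, 8 and 9 with H2O2, a log2FC of −0.62 (SE 0.55). The log2FC was 0.12 (SE 0.35) for hsa-miR-29b-2-5p and −0.11 (SE 0.39) for hsa-miR-29b-1-5p. Over the members, 0 of 7 were called by either edgeR test and none had an unadjusted p under 0.05, while the exact test called 15.3% of all 868 miRNAs (9.91% lowered and 5.41% raised), the quasi-likelihood test 1.96%, and 28.6% had such a p.

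Which control was used decided this result. Against control 1 alone, 5 of 7 members were called raised by edgeR's exact test, with the spread taken from the H2O2 libraries and the lone control assumed to vary like them. hsa-miR-29a-3p then had a log2FC of 1.67, hsa-miR-29c-3p of 1.43, hsa-miR-29a-5p of 1.04, hsa-miR-29c-5p of 1.02 and hsa-miR-29b-2-5p of 0.76, in a test that called 52.6% of 966 miRNAs. Against control 2 alone, 0 members were called in a test that called 31.5% of 952 miRNAs, with log2FC of −0.05 for hsa-miR-29a-3p and −0.21 for hsa-miR-29c-3p. Control 1 is the library with the high hsa-miR-223-3p and hsa-miR-205-5p, whose part in these values was not tested.

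The response to H2O2 could also be compared across the experiments, by an interaction term fitted to the 11 libraries together with the quasi-likelihood method, and 29.6% of 894 miRNAs passed that test at an FDR of 0.05. Of the members, hsa-miR-29a-5p passed, with a co-treatment minus pre-treatment log2FC of −1.20 (SE 0.42, FDR = 0.0448 from edgeR's quasi-likelihood test). Of the fits that left out 1 of the 11 libraries, those without co-treatment control 3 and without pre-treatment control 2 kept that call and the other 9 lost it. The call was kept with library size scaling, DESeq2 size factors and DESeq2, and with the GC trend taken off, a setting chosen after seeing the data, the difference was −0.12 (quasi-likelihood FDR = 0.863). hsa-miR-29c-3p had a difference of −1.41 (SE 0.60, quasi-likelihood FDR = 0.0920) and hsa-miR-29b-3p of −1.17 (SE 0.73, quasi-likelihood FDR = 0.254), so the fall of these guides in co-treatment was not shown to be particular to it. Without pre-treatment control 2, hsa-miR-29c-3p (−2.35, quasi-likelihood FDR = 0.00294) and hsa-miR-29a-3p (−1.63, quasi-likelihood FDR = 0.00443) passed.

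The 3p arms together, which could act on the same seed matches, summed to 6578, 6019 and 10924 CPM in co-treatment controls and 4904, 6946 and 3606 CPM with H2O2. These sums overlapped, and hsa-miR-29b-3p was at most 0.149% of the 3p counts of any library. How reads that match both of its hairpins were counted is not given, so its share is uncertain. In pre-treatment they were 2926 and 8028 CPM in the controls and 6767, 6374 and 8426 CPM with H2O2. In bulk samples, fewer cells with a miRNA and less of it per cell cannot be told apart.

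Other miRNAs that are known, like miR-29, to target DNA methyltransferases or the histone methyltransferase EZH2 were lowered in 3 of 7 cases and raised in 0 in co-treatment, where 15.6% of all tested miRNAs were lowered and 10.6% raised. They were hsa-miR-148a-3p (log2FC −1.10, SE 0.26), hsa-miR-101-3p (−0.96, SE 0.29) and hsa-miR-26b-5p (−0.71, SE 0.23). Their GC contents were 40.9%, 33.3% and 33.3%. Of all tested miRNAs under 42% GC, 39.3% were lowered and 0 raised in co-treatment. In pre-treatment, against 5.41% raised and 9.91% lowered over all miRNAs, 2 of 7 were raised and 0 lowered, hsa-miR-101-3p (1.41, SE 0.36) and hsa-miR-26b-5p (1.08, SE 0.25), and neither passed the quasi-likelihood test. Under 42% GC, 8.72% of tested miRNAs were raised and 1.54% lowered in pre-treatment. The median log2FC of this list was −0.60 in co-treatment and 0.82 in pre-treatment, against −0.04 and −0.19 over all tested miRNAs.

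miRNAs described, like the miR-29 hairpins, as repressed by the transcription factor MYC numbered 16, all tested. In co-treatment 4 were lowered and 0 raised (15.6% and 10.6% over all tested miRNAs), with a median log2FC of −0.44 (−0.04 over all), and the largest falls were those of hsa-miR-30b-5p (−1.51, SE 0.33), hsa-miR-30c-5p (−1.497, SE 0.38) and hsa-miR-15a-5p (−1.19, SE 0.24). In pre-treatment 5 were raised and 1 lowered (5.41% and 9.91% over all), with a median of 0.44 (−0.19 over all), and the largest called changes were in hsa-miR-30c-5p (−1.90, SE 0.60), hsa-miR-195-5p (1.27, SE 0.26) and hsa-miR-497-5p (1.12, SE 0.25). None of these 6 passed the quasi-likelihood test. The MYC list was not compared within GC classes, and MYC itself was not measured here. The lists share hsa-miR-26a-5p and hsa-miR-26b-5p.

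Of 7 neuronal marker miRNAs listed, 6 were tested in co-treatment and 3 were lowered, hsa-miR-137 (log2FC −1.10, SE 0.20), hsa-miR-9-5p (−1.06, SE 0.40) and hsa-miR-218-5p (−0.99, SE 0.29). Few reads underlay hsa-miR-9-5p, with 31, 24 and 46 counts in controls and 20, 14 and 17 with H2O2. Its FDR was 0.0493 in edgeR's exact test. The quasi-likelihood test called 2 of the 6 tested markers. Not called were hsa-miR-7-5p (−0.66), hsa-miR-128-3p (−0.04, SE 0.24) and hsa-miR-375 (0.06, SE 0.26), named after their values were seen. The list, most of whose counts were those of hsa-miR-137, summed to 34130 to 38080 CPM in controls and 18440 to 22250 CPM with H2O2. Markers of fibroblasts and muscle summed to 15250 to 16850 CPM in controls and 10240 to 13330 CPM with H2O2, with 1 of 4 tested lowered and hsa-miR-133a-3p at 0 throughout. Most counts of this list were those of hsa-miR-143-3p, which was not called (log2FC −0.60). The lowered marker, hsa-miR-199a-5p, had 42, 35 and 43 counts in controls and 13, 16 and 5 with H2O2. The sums of this list and of the epithelial one lack hsa-miR-1-3p and hsa-miR-203a-3p, which were not matched by name. White blood cell markers summed to 17.7 to 22.3 CPM and 9.78 to 17.5 CPM (1 of 4 lowered), epithelial markers to 45.5 to 51.9 CPM and 40.0 to 44.7 CPM (0 of 5 called), and red blood cell markers to 4.19 to 7.27 CPM and 5.90 to 10.1 CPM (1 of 3 raised). In pre-treatment the white blood cell sum was 14.03 to 120.3 CPM in controls and 17.3 to 21.7 CPM with H2O2, and the epithelial sum 42.6 to 186 CPM and 43.5 to 49.3 CPM (1 of 4 and 1 of 5 lowered). The neuronal sum there was 15300 to 28190 CPM in controls and 30720 to 38720 CPM with H2O2 (1 of 6 lowered), that of fibroblasts and muscle 10390 to 19450 CPM and 13710 to 15530 CPM (1 of 4 lowered), and that of red blood cells 2.14 to 3.73 CPM and 10.4 to 14.8 CPM (2 of 3 raised). The part of any of these in the miR-29 levels was not tested.

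The miR-29a and miR-29c guides were not each other's nearest match across the libraries. Likeness was measured as the root mean square distance between log2 CPM profiles over the 11 libraries, after taking off each experiment's mean, among 403 other miRNAs with at least 10 CPM. By this measure hsa-miR-29c-3p was the 84th nearest to hsa-miR-29a-3p and hsa-miR-29a-3p the 42nd nearest to hsa-miR-29c-3p, at a distance of 0.406. Nearest to hsa-miR-29a-3p were hsa-miR-598-3p (0.166), hsa-miR-148b-3p, hsa-miR-4677-3p, hsa-miR-187-3p and hsa-miR-186-5p (0.207), against a median distance of 0.572. Nearest to hsa-miR-29c-3p were hsa-miR-199b-5p (0.243), hsa-miR-376c-3p, hsa-miR-301a-5p, hsa-miR-548b-3p and hsa-miR-561-5p (0.291), against a median of 0.687.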

How the data were processed

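Small RNA of 11 libraries was analysed. Per the labels and methods, the authors prepared libraries with the QIAseq kit, trimmed reads with Cutadapt 2.10, mapped them to hg19 with Bowtie2 2.4.1 and counted mature miRNAs with HTSeq 0.7.2; whether molecular identifiers were used is not given in the sources used here. The deposited counts are not normalized, and detection limits cover counting error only. The authors' deposited comparison tables hold their log2 fold changes, p-values and FDR and were not used.

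Each experiment's H2O2 and control counts were set against each other with edgeR 4.0.16 (R 4.3.3). The exact test, filter and thresholds follow the study's methods, which name CPM but no TMM factors. TMM was chosen here, with library size scaling as an alternative. A miRNA entered where its CPM exceeded what 5 counts make in the smallest library, which is 0.936 for co-treatment (needed in 3 libraries) and 0.721 for pre-treatment (needed in 2). A call required FDR < 0.05 with |log2FC| > 0.6. Standard errors were derived from edgeR's quasi-likelihood fit over all tested miRNAs, as |log2FC| divided by the square root of the F statistic. Log2 arm ratios had 0.5 added to each count.

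GC content was taken from RefSeq mature sequences (GRCh38.p14 table, sequences only), which 363 of 409 miRNAs with at least 10 CPM had in co-treatment (88.8%) and 348 of 396 in pre-treatment (87.9%); each library's lowess trend (span 0.5) was an offset. Classes at 42% and 52% GC were set after seeing the data. Hairpins were placed by exact match of RefSeq hairpins to GRCh37, with GENCODE genes. Alternatives were DESeq2 1.42.0, other scalings, filters and thresholds, a joint fit, the replicate number as a block and omission of single libraries. Named miRNAs outside the family are at most the 3 largest calls per list and experiment and the 5 nearest profiles per guide. The members and lists were chosen with earlier results of these data known. Scripts were tested on simulated data.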

Additional observations from a re-analysis of the deposited data

Results flagged for a closer look

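The response of hsa-miR-29a-5p, the passenger strand of miR-29a, differed between the experiments by −1.20 on the log2 scale (co-treatment minus pre-treatment, quasi-likelihood FDR = 0.0448 in edgeR), with log2FC of −0.70 in co-treatment and 0.53 in pre-treatment, neither of which was called alone. It rests on 54 to 137 counts per library. The difference lay between −1.47 and −0.94 when any 1 of the 11 libraries was left out, and the FDR ranged from 0.0119 to 0.156. With the GC trend of all tested miRNAs taken off, it was −0.12 (quasi-likelihood FDR = 0.863).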

How the results depend on the processing

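The exact test called 207 miRNAs in co-treatment and 133 in pre-treatment. In co-treatment, calls numbered 111 with the replicate block (1 member), 86 when both experiments were fitted jointly (1 member), 135 in the quasi-likelihood test of miRNAs with a GC value and at least 10 CPM (1 member, since hsa-miR-29b-3p is below 10 CPM), 24 with the GC offset there, 153 over all tested miRNAs with a GC value (2 members) and 47 with the offset there (0 members with either offset). hsa-miR-29c-3p had log2FC −1.16 with the replicate block (quasi-likelihood FDR = 0.0518), −1.13 in the joint fit, and −0.35 and −0.42 with the GC offsets, and hsa-miR-29b-3p had −0.98 with the second. Whether same-numbered libraries were handled together is not given in the sources used here. After group means were taken off, their correlations were 0.04, −0.16 and −0.16 in co-treatment and 0.23 and −0.05 in pre-treatment. Such values from groups of 2 or 3 libraries cannot decide this, since the deviations of 2 controls are mirror images. In pre-treatment, calls numbered 17 and 16 in the quasi-likelihood and robust quasi-likelihood tests, 61 with no filter, 15 with the replicate block, 61 and 41 without and with the GC offset at 10 CPM or more, and 12 and 2 over all tested miRNAs. With the GC offset over all tested miRNAs, 74 differences between experiments passed in place of 265, that of hsa-miR-29a-5p was −0.12, and those of hsa-miR-29a-3p (0.035) and hsa-miR-29b-3p (0.054) reversed.

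Signs that turned were of members not called. In co-treatment these were hsa-miR-29c-5p with library size scaling (0.057), the filter in all libraries (0.12) and the GC subset (0.12), hsa-miR-29a-3p with the GC offsets (0.40 and 0.31) and hsa-miR-29a-5p with the first (0.056). In pre-treatment they were hsa-miR-29b-1-5p with no filter (0.046) and the replicate block (0.094), hsa-miR-29b-2-5p with the filter in all libraries (−0.028) and the GC subset (−0.067), and hsa-miR-29c-3p with the GC offsets (−0.17 and −0.11).

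When libraries were left out singly, co-treatment calls ranged from 107 to 274, with 1 to 2 members, and pre-treatment calls from 9 to 508, with 0 to 5 members. Co-treatment log2FC ranged from −1.42 to −0.74 for hsa-miR-29c-3p, −2.18 to −1.48 for hsa-miR-29b-3p, −0.36 to 0.087 for hsa-miR-29a-3p, −0.14 to 0.50 for hsa-miR-29b-1-5p and −0.081 to 0.14 for hsa-miR-29c-5p. Pre-treatment log2FC ranged from −0.048 to 1.67 for hsa-miR-29a-3p, −0.21 to 1.43 for hsa-miR-29c-3p, −0.85 to 0.064 for hsa-miR-29b-3p, −0.22 to 0.26 for hsa-miR-29b-1-5p and −0.082 to 0.76 for hsa-miR-29b-2-5p. Differences between experiments passed for 178 to 433 miRNAs and ranged from −1.47 to −0.94 for hsa-miR-29a-5p. The pre-treatment arm ratio differences ranged from −0.45 to 0.63 for miR-29a and −0.69 to 0.38 for miR-29c. The cause of the changes was not tested, and leaving out 1 library gave fewer calls in some fits and more in others.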
